A study of Mus musculus with 6 samples.

Results

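Plasma membrane amino acid transporter genes known as targets of the stress transcription factor ATF4, or as partners of such targets, were examined in mouse ear skin: Slc7a11, Slc7a5, Slc3a2, Slc1a4, Slc1a5, Slc38a2 and Slc7a1. The members were taken by gene symbol. All 7 were found among the 54532 genes of the deposited table, and all 7 were among the 17318 genes with enough counts to be tested. Libraries came from Ufl1 cKO mice, which carried Ufl1f/f together with KRT14Cre/+ (3 libraries), and from control mice labelled as Ufl1f/+ or Ufl1f/f with no Cre named (3 libraries). All mice were 3 months old, and every group therefore carried at least one floxed Ufl1 allele. Ufl1 encodes the ligase that attaches the ubiquitin-like protein UFM1 to its targets, and the keratin 14 promoter is active in basal keratinocytes and their descendants. Whole ear skin was sequenced, so cells without Cre contributed to every level, and a larger number of cells of a type cannot be told apart from more RNA per cell. No Cre is named for the controls, so an effect of Cre itself cannot be told apart from that of the Ufl1 deletion.

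Amino acid starvation and stress of the endoplasmic reticulum both halt general translation through phosphorylation of eIF2alpha while favouring translation of ATF4. ATF4 binds composite C/EBP-ATF response elements and raises genes for amino acid uptake, amino acid synthesis and the charging of tRNA. Slc7a11 is the light chain of the cystine and glutamate exchanger. Imported cystine supplies cysteine for glutathione, and in melanocytes also for the yellow to red pigment pheomelanin, which is reduced in subtle gray mice that lack a working Slc7a11. Slc7a5 and Slc7a11 reach the cell surface only when joined to the heavy chain Slc3a2 (CD98).

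The sequence just upstream of Slc7a11 is shown because it holds matches to the response element bound by ATF4. That of Slc38a2, the most abundant member on average, is shown beside it as a window without a match. Both come from RefSeq windows on GRCm38.p6, minus strand, and end at the base before the annotated start. The Slc7a11 window is chr3:50443614-50443863 and the Slc38a2 window is chr15:96699729-96699978. Capitals mark matches to TGATGNAA, the core of the C/EBP-ATF response element, on either strand.
Slc7a11: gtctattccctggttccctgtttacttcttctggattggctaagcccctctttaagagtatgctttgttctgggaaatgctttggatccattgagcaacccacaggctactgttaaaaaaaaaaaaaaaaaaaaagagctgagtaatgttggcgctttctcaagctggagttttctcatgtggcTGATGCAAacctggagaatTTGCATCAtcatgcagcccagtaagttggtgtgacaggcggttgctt
Slc38a2: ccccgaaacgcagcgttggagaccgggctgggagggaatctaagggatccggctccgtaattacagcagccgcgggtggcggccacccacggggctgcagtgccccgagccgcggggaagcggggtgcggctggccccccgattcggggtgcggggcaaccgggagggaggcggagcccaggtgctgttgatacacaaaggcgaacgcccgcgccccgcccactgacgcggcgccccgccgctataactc
The Slc7a11 window held the core as TGATGCAA at 66 to 59 bases before the start and, in reverse, as TTGCATCA at 47 to 40 bases before it. RefSeq windows of 300 bases (250 before and 50 after the start) were on hand for 5 of the 7 members, 6 windows in all. Among these, Slc1a4 also held a single reverse match, TTGCATCA, which spans the start from 4 bases before it to the base 4 after it, while the windows of Slc3a2, Slc38a2 and Slc7a1 held none. Of 32851 mouse windows of this length, 3.97% held at least 1 match and 23, or 0.0700%, held 2 or more. TGACNNNGC, the core of the antioxidant response element bound by NRF2, was present in 1 window of Slc7a1 and in that of Slc38a2 and in 12.4% of all windows. The E-box CACGTG was in none of the members' windows and in 7.15% of all. TCATGTG, the core of the M-box bound by the melanocyte factor MITF, was searched after the Slc7a11 sequence had been seen. It lies 75 to 69 bases before the Slc7a11 start, next to the first response element, and occurs in 3.77% of all windows. Matches of letters describe the sequence and do not show that a factor binds there. Only these windows were searched, so an element elsewhere in a gene would be missed.

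Total counts were 18212929 to 19050876 in Ufl1 cKO libraries and 17256339 to 20776539 in controls. The mitochondrial share was 2.49% to 2.71% in Ufl1 cKO libraries, against 4.59% in control 1 and 2.29% and 2.97% in the other controls. The tissue label was met by 7 basal keratinocyte markers. Their summed level was 5408 to 7212 CPM (counts scaled by TMM to one library size) in Ufl1 cKO libraries. In controls it was 3354 to 11590 CPM, lowest in control 1 and highest in control 2. Transcripts of muscle and cartilage were present as well. The 5 skeletal muscle markers summed to 1644 to 4488 CPM in Ufl1 cKO and 2198 to 5440 CPM in control libraries. The 5 cartilage markers summed to 871 to 1516 CPM in Ufl1 cKO and 779 to 1529 CPM in control libraries. Ufl1 itself was at 34.9, 35.6 and 38.8 CPM in Ufl1 cKO 1 to 3, against 57.9, 47.0 and 46.1 CPM in controls 1 to 3. Every Ufl1 cKO library was thus below every control, with a log2 fold change of -0.47 (SE 0.14; edgeR adjusted p = 0.778). Whether libraries of a group came from separate animals is not stated in the labels, and p-values here reflect only the spread between the libraries, which may be technical.

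Slc7a11, Slc7a5 and Slc7a1 had every Ufl1 cKO library above every control, a separation that 5.73% of all genes tested showed. No member had every Ufl1 cKO library below every control, beside 4.81% of all genes. Slc3a2 overlapped between groups, and Slc1a4, Slc1a5 and Slc38a2 also overlapped, with log2 fold changes between -0.24 and -0.02. The median over the 7 members was 0.31 (0.07 without control 1), beside -0.01 over all genes tested, and 4 of 7 were positive, beside 47.8% of all genes. In the edgeR quasi-likelihood test, adjusted over all genes, 0 members were called, where 0.0173% of genes were called (0.0115% higher and 0.00577% lower). Before adjustment edgeR gave 3 members p under 0.05, all of them higher, beside 3.38% of all genes higher and 1.95% lower. DESeq2 called 1 member higher (Slc7a11), where 0.302% of genes were called higher, and limma-voom called 0, with 3 at an unadjusted p under 0.05.

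**Figure D1:**
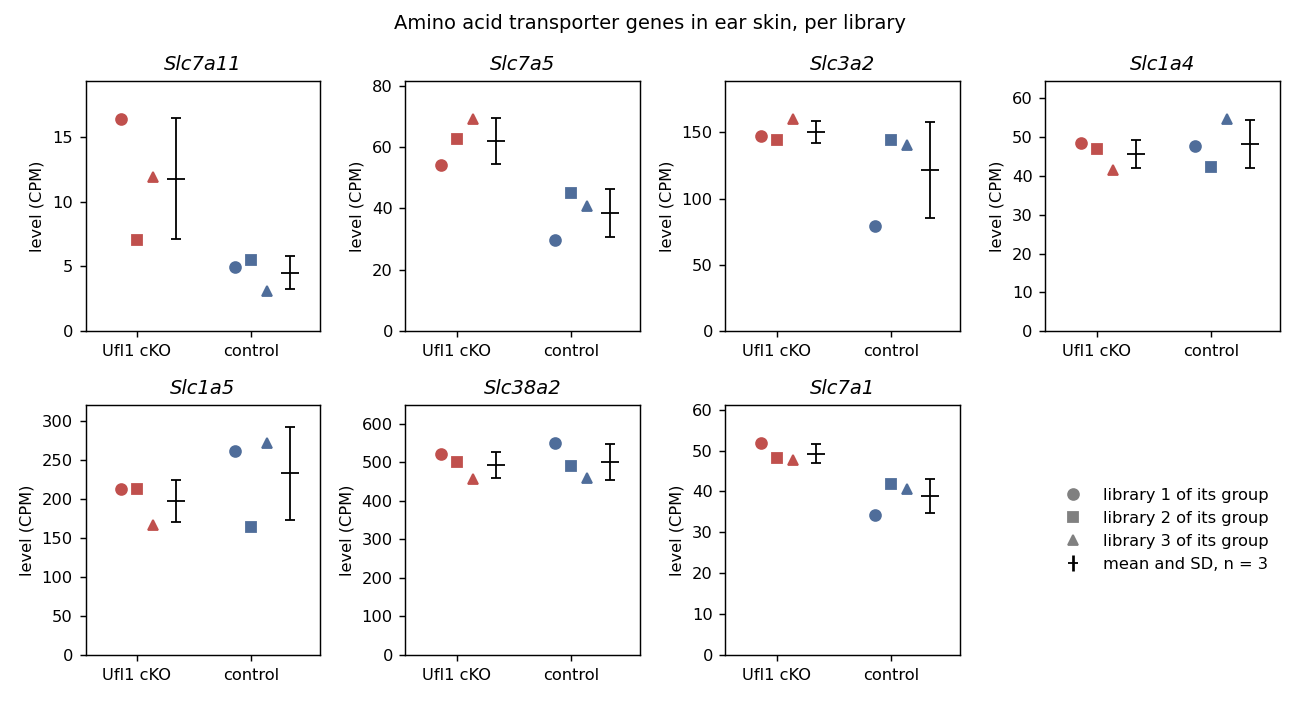
TMM-scaled CPM of each of the 7 transporter genes (y axis, from 0) in the 3 Ufl1 cKO libraries (left, red) and 3 control libraries (right, blue), with marker shape giving the library number and bars the mean and SD. Slc7a11, Slc7a5 and Slc7a1 do not overlap between groups, and control 1 is the lowest library for Slc7a5, Slc3a2 and Slc7a1.

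Slc7a11 (ENSMUSG00000027737, chromosome 3, 49892526 to 50443614, mm10) was at 16.4, 7.05 and 11.9 CPM in Ufl1 cKO 1 to 3, against 4.95, 5.52 and 3.07 CPM in controls 1 to 3. The lowest cKO library lay above the highest control, and cKO 1 was more than double cKO 2. Group means were 11.8 ± 4.67 CPM in Ufl1 cKO and 4.51 ± 1.28 CPM in control libraries (SD, n = 3 each), a 2.61-fold difference. The log2 fold change was 1.39 (SE 0.36), larger than that of 98.9% of genes tested. In edgeR p was 0.00482 before and 0.650 after adjustment, while the DESeq2 adjusted p was 0.0393. The two-sided exact permutation p on log2 CPM was 0.1, the lowest value possible with 3 libraries a group. These values rest on 294, 127 and 227 counts in Ufl1 cKO 1 to 3 and on 83, 107 and 65 counts in controls 1 to 3. Counting error alone is then 5.83% to 12.4% of a library's level, which is small beside the spread among cKO libraries.

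The size of the Slc7a11 difference, but not its direction, depended on single libraries. By edgeR it was 1.07 (SE 0.37) without Ufl1 cKO 1 and 1.65 (SE 0.32) without Ufl1 cKO 2. The edgeR adjusted p was 0.426 to 1.0 over the 6 fits with a library left out. The DESeq2 call was kept without Ufl1 cKO 2 (adjusted p = 0.00247), control 1 (adjusted p = 0.0410) or control 2 (adjusted p = 0.0290). It was lost without Ufl1 cKO 1 (adjusted p = 0.935), Ufl1 cKO 3 (adjusted p = 0.360) or control 3 (adjusted p = 0.444). In the authors' deposited table the adjusted p of Slc7a11 was 0.0411, at a log2 fold change of 1.39, and 0.204% of genes there were called higher. For all 7 members the deposited log2 fold changes and p-values equal those of DESeq2 here within 0.1%, so the authors' table adds no separate evidence.

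**Figure D2:**
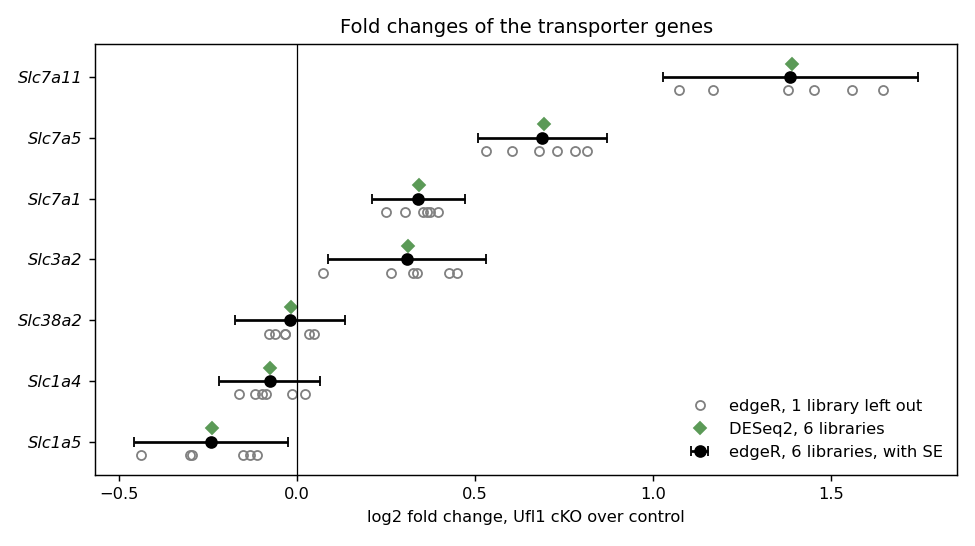
Log2 fold change of Ufl1 cKO over control (x axis) for each gene (rows), from edgeR with its SE (black), from DESeq2 (green) and from edgeR with 1 library left out (open circles). Slc7a11 stays between 1.07 and 1.65, while the values of Slc38a2 and Slc1a4 fall on both sides of 0.

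Pigment cells use cystine for pheomelanin. Of 12 melanocyte markers, 8 had every Ufl1 cKO library above every control, beside 5.73% of all genes. The 12 melanocyte markers summed to 297.9, 318 and 397 CPM in Ufl1 cKO 1 to 3, against 174, 144 and 176 CPM in controls 1 to 3. Of these markers 1 was called by edgeR (Tyrp1, a melanin enzyme, log2 fold change 2.02, SE 0.18), where 0.0115% of genes were called higher. DESeq2 called 7, where 0.302% of genes were called higher. The median log2 fold change of the 12 markers was 1.81. The other 4 overlapped between groups, with log2 fold changes of -0.32 (SE 0.26) for Sox10 and 0.12 (SE 0.21) for Mitf, both transcription factors of the lineage, and 0.23 (SE 0.38) for Ednrb and 0.39 (SE 0.32) for Kit, both receptors (edgeR adjusted p = 0.997 for each). No marker was at 0. Mc1r, the receptor whose signal favours eumelanin over pheomelanin, was at 3.40, 4.50 and 6.65 CPM in Ufl1 cKO 1 to 3, against 0.597, 1.03 and 1.09 CPM in controls 1 to 3 (log2 fold change 2.40, SE 0.39; edgeR adjusted p = 0.239). The agouti gene, whose product blocks that receptor, was at 2.06, 1.61 and 1.89 CPM in Ufl1 cKO 1 to 3, against 1.97, 1.91 and 2.98 CPM in controls 1 to 3 (log2 fold change -0.30, SE 0.32). Of 5 genes of the pheomelanin switch, 2 had an unadjusted edgeR p under 0.05, both higher, beside 3.38% of all genes higher. These 2 were Slc7a11 itself and Mc1r, which is also among the 12 melanocyte markers, so the list adds no further gene. Slc7a11 amounted to 5.50%, 2.22% and 3.00% of the summed melanocyte marker level in Ufl1 cKO 1 to 3, against 2.85%, 3.83% and 1.74% in controls 1 to 3, so this ratio overlapped between groups. The ratio depends on the 4 markers that overlapped between groups, so it does not give Slc7a11 per pigment cell. Sox10 is also among the 6 Schwann cell markers listed, of which 0 were positive (median log2 fold change -0.50). Kit, Mitf, Ednrb and Sox10 were at 45.75, 31.1, 28.5 and 22.1 CPM in control 1. In Ufl1 cKO 1 they were at 43.9, 22.85, 27.5 and 24.7 CPM. A ratio to the other 8 markers alone was not tested. The order of the cKO libraries differed, with Slc7a11 highest in cKO 1 and the melanocyte markers highest in cKO 3.

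Other transporters and channels of the melanosome were compared with the lysosomal handling of cystine. Slc45a2, a transporter of the melanosome, was at 2.12, 2.61 and 3.93 CPM in Ufl1 cKO 1 to 3, against 0.358, 0.567 and 0.851 CPM in controls 1 to 3. Its log2 fold change was 2.26 (SE 0.43), beside 2.33 (SE 0.50) for Oca2, an anion channel gene of the same organelle, and 1.74 (SE 0.43) for the exchanger gene Slc24a5. DESeq2 called these 3, where 0.302% of genes were called higher. In edgeR 0 of the 6 genes in this list were called. At an unadjusted p under 0.05 edgeR gave 3, all higher, beside 3.38% of all genes higher. The other three, which act on cystine, cysteine or basic amino acids in lysosomes or melanosomes, gave log2 fold changes of -0.28 (Mfsd12), -0.15 (Slc66a1) and -0.01 (Ctns).

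Keratinocyte stress genes and neutrophil genes were highest in cKO 1, as Slc7a11 was. The 7 stress keratin and alarmin markers summed to 1853, 439 and 461 CPM in Ufl1 cKO 1 to 3, against 245.5, 234 and 219 CPM in controls 1 to 3. The 6 neutrophil markers summed to 416, 43.4 and 68.8 CPM in Ufl1 cKO 1 to 3, against 78.6, 6.60 and 14.8 CPM in controls 1 to 3, and S100a8 and S100a9 are in both lists. No gene of either list was at 0 in all libraries. The neutrophil sum of control 1 was above 2 of the cKO libraries, with S100a8 at 38.0 CPM and S100a9 at 30.9 CPM there. Cxcr2 was at 1.85 CPM in control 1, against 19.95, 2.50 and 4.77 CPM in Ufl1 cKO 1 to 3. Csf3r was at 7.04 CPM in control 1, against 41.7, 4.44 and 9.79 CPM in Ufl1 cKO 1 to 3. The part of pigment cells, stressed keratinocytes and neutrophils in the Slc7a11 difference was not tested.

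**Figure D3:**
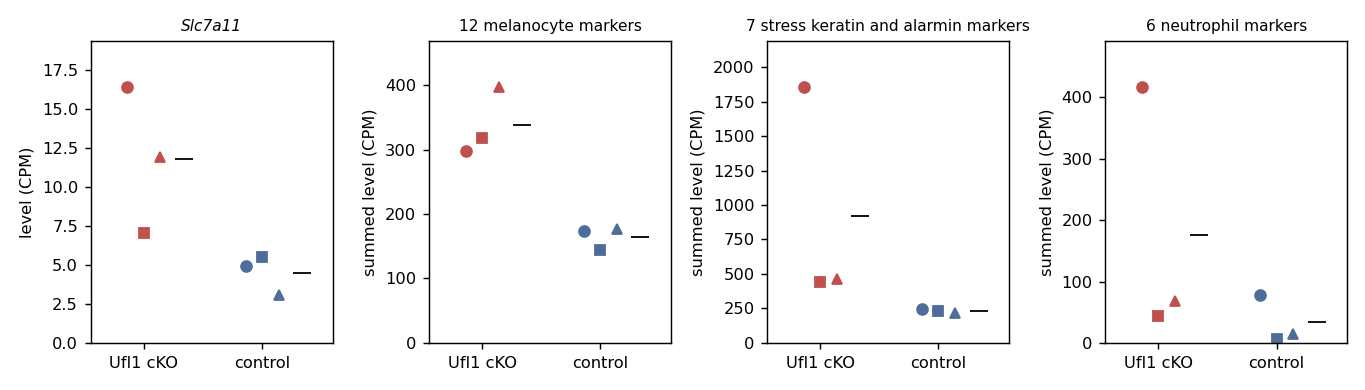
CPM of Slc7a11 (left panel) and summed CPM of 3 marker lists (other panels) in Ufl1 cKO (left in each panel, red) and control libraries (right, blue). Marker shape gives the library number and the bar the mean of 3. Slc7a11, the stress markers and the neutrophil markers are highest in cKO 1, and the melanocyte markers in cKO 3.

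Slc7a5 (ENSMUSG00000040010, chromosome 8, 121881150 to 121907694), the light chain LAT1 that imports leucine and other large neutral amino acids, was at 54.1, 62.7 and 69.0 CPM in Ufl1 cKO 1 to 3. Controls 1 to 3 had 29.8, 44.9 and 40.6 CPM, all below the lowest cKO library. Its mean was 62.0 ± 7.49 CPM in Ufl1 cKO and 38.4 ± 7.81 CPM in control libraries (SD, n = 3 each), a 1.61-fold difference and a log2 fold change of 0.69 (SE 0.18). In edgeR p was 0.0052 before and 0.650 after adjustment, and the DESeq2 adjusted p was 0.176. Without one library at a time the edgeR log2 fold change lay between 0.53 (without control 1) and 0.81 (without control 2), and DESeq2 called the gene only without control 2 (adjusted p = 0.0269). Within the cKO, Slc7a5 was lowest in the library in which Slc7a11 was highest.

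Slc3a2 (ENSMUSG00000010095, chromosome 19, 8706882 to 8723369), the shared heavy chain, was at 147, 144.5 and 160.0 CPM in Ufl1 cKO 1 to 3. Controls 1 to 3 were at 79.8, 145 and 141 CPM, so that control 1 stood apart and control 2 lay within the cKO range. The log2 fold change was 0.31 (SE 0.22; edgeR adjusted p = 0.997), and it was 0.07 (SE 0.11) without control 1. The difference in Slc3a2 therefore rested on 1 control library.

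Slc7a1 (ENSMUSG00000041313, chromosome 5, 148327410 to 148399904), the arginine and lysine transporter CAT1, was at 51.9, 48.2 and 47.7 CPM in Ufl1 cKO 1 to 3, against 34.2, 41.9 and 40.6 CPM in controls 1 to 3. The groups did not overlap, and the means were 49.3 ± 2.29 CPM in Ufl1 cKO and 38.9 ± 4.15 CPM in control libraries (SD, n = 3 each). Its log2 fold change was 0.34 (SE 0.13), at an edgeR p of 0.0317 before and 0.874 after adjustment. When counts were scaled by the library total alone, the unadjusted p was 0.0551. Leaving out single libraries gave 0.25 (without control 1) to 0.40 (without control 2), and the unadjusted p was under 0.05 only without control 2.

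The sodium-coupled transporters overlapped between groups. Slc38a2 (ENSMUSG00000022462, chromosome 15, 96687392 to 96699730), the small neutral amino acid transporter SNAT2, was at 522, 501.5 and 456 CPM in Ufl1 cKO 1 to 3, against 550.4, 491 and 459.6 CPM in controls 1 to 3. Its log2 fold change was -0.02 (SE 0.15), and the groups overlapped. Slc1a4 (ENSMUSG00000020142, chromosome 11, 20302180 to 20332713), the alanine, serine and cysteine transporter ASCT1, was at 48.5, 47.1 and 41.6 CPM in Ufl1 cKO 1 to 3, against 47.8, 42.3 and 54.6 CPM in controls 1 to 3 (log2 fold change -0.08, SE 0.14). Slc1a5 (ENSMUSG00000001918, chromosome 7, 16781340 to 16798274), the glutamine transporter ASCT2, was at 212, 212 and 166 CPM in Ufl1 cKO 1 to 3, against 262, 164 and 271 CPM in controls 1 to 3. Controls 1 and 3 were above every cKO library and control 2 was below them all. The log2 fold change of Slc1a5 was -0.24 (SE 0.22), and without control 2 it was -0.44 (SE 0.15; unadjusted p = 0.0199, edgeR adjusted p = 0.651). All 3 had an adjusted p of 0.997 in edgeR with all libraries.

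By level per gene length, Slc7a11 was the lowest member in all 6 libraries. In the deposited FPKM, Slc38a2 averaged 55.4 ± 3.58 in Ufl1 cKO and 56.1 ± 5.29 in control libraries, and Slc1a5 46.8 ± 6.22 in Ufl1 cKO and 55.2 ± 14.4 in control libraries (SD, n = 3 each). Slc3a2 followed at 42.4 ± 2.46 FPKM in Ufl1 cKO and 34.1 ± 10.1 FPKM in control libraries (SD, n = 3 each). These 3 were the top members in all 6 libraries, but neighbours among them changed places between libraries. Slc7a5 averaged 16.6 ± 2.07 FPKM in Ufl1 cKO and 10.3 ± 2.04 FPKM in control libraries, and Slc1a4 11.6 ± 0.871 FPKM in Ufl1 cKO and 12.2 ± 1.63 FPKM in control libraries (SD, n = 3 each). Slc7a5 was above Slc1a4 in 3 of 3 cKO libraries and in 1 of 3 controls. Slc7a1 averaged 4.24 ± 0.181 FPKM in Ufl1 cKO and 3.34 ± 0.343 FPKM in control libraries, and Slc7a11 0.840 ± 0.331 FPKM in Ufl1 cKO and 0.321 ± 0.0898 FPKM in control libraries (SD, n = 3 each). The deposited length of Slc7a11, 13922 bases, exceeds its longest coding transcript in GENCODE M21 (9223 bases, 12 exons), so its FPKM would be higher if only that transcript were made. Other annotated genes that overlap Slc7a11 held 13 counts over all libraries, and those that overlap Slc7a5 held 0.

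The light chains that pair with Slc3a2 were then compared within each library, as shares of their summed counts per kilobase, which do not depend on library scaling. Slc7a5 made up 44.3%, 54.4% and 50.2% in Ufl1 cKO 1 to 3, against 34.6%, 42.4% and 40.6% in controls 1 to 3. Slc7a6, which exchanges basic for neutral amino acids, made up 23.8%, 22.4% and 22.6% in Ufl1 cKO 1 to 3, against 37.9%, 37.9% and 33.8% in controls 1 to 3. Both shares were separated between groups, in opposite directions. These directions are not independent, since a larger Slc7a5 share leaves less for the other light chains.

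By level, Slc7a6 was at 35.8, 31.8 and 38.4 CPM in Ufl1 cKO 1 to 3, against 40.1, 49.4 and 41.6 CPM in controls 1 to 3 (log2 fold change -0.31, SE 0.14; edgeR adjusted p = 0.941). Slc7a11 made up 3.57%, 1.63% and 2.30% of the light chains in Ufl1 cKO 1 to 3, against 1.53%, 1.39% and 0.818% in controls 1 to 3. The mean share of Slc7a11 was 2.50% ± 0.988 in Ufl1 cKO and 1.25% ± 0.378 in control libraries (SD, n = 3 each; two-sided exact permutation p = 0.1, the smallest possible). The difference of 1.25 percentage points was 0.719 without Ufl1 cKO 1. With Slc7a5 and Slc7a11 as the only light chains, the Slc7a11 share averaged 4.92% in Ufl1 cKO and 3.13% in control libraries, and the groups overlapped (two-sided exact permutation p = 0.4). Summed light chains per Slc3a2 averaged 0.789 ± 0.0291 in Ufl1 cKO and 0.800 ± 0.197 in control libraries (SD, n = 3 each; two-sided exact permutation p = 1.0). This ratio was 1.03 in control 1, where Slc3a2 was low, and 0.697 and 0.677 in the other controls, below the 0.760 to 0.818 of the cKO. Without control 1 the difference was 0.10, of the opposite sign to the -0.01 with all libraries. Slc7a7, Slc7a8 and Slc7a10 had shares that overlapped between groups.

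**Figure D4:**
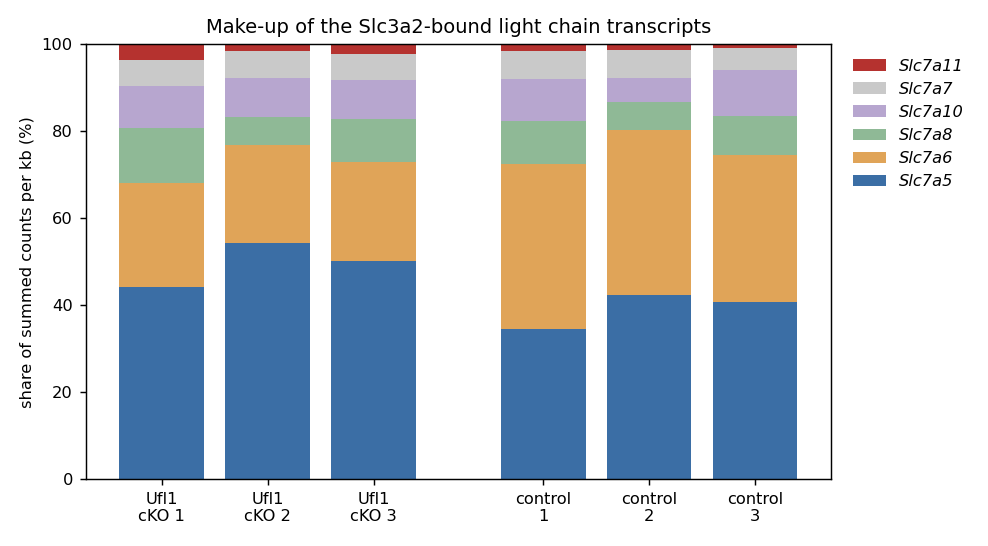
Share of each Slc3a2-bound light chain (stacked colours) in the summed counts per kilobase of the 6 light chains (y axis, percent), for each Ufl1 cKO library (left) and control library (right). The Slc7a5 share is 44.3% to 54.4% in the cKO and 34.6% to 42.4% in controls, and the Slc7a6 share is 22.4% to 23.8% in the cKO and 33.8% to 37.9% in controls.

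Other transporters were compared by list. Of 13 other SLC7 and SLC3 genes 7 were tested, with a median log2 fold change of 0.28, and at an unadjusted p under 0.05 edgeR gave 0 in either direction (0 called by edgeR or DESeq2). Slc7a8, a neutral amino acid light chain, was at 20.8, 10.2 and 18.5 CPM in Ufl1 cKO 1 to 3, against 11.6, 9.07 and 12.1 CPM in controls 1 to 3 (log2 fold change 0.59, SE 0.28). Slc7a10, the exchanger of small neutral amino acids, had a log2 fold change of 0.48 (SE 0.27).

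Of 33 other amino acid transporters, not all of the plasma membrane, 27 were tested, with a median of -0.03. Among these, edgeR called 0, DESeq2 called 0 higher and 1 lower, and 4 had an unadjusted p under 0.05 in edgeR, 1 of them higher. Slc6a19, a sodium-dependent importer of neutral amino acids, fell in the DESeq2 test, with 23.7, 21.5 and 24.6 CPM in Ufl1 cKO 1 to 3, against 33.7, 49.8 and 50.9 CPM in controls 1 to 3 (log2 fold change -0.94, SE 0.18; DESeq2 adjusted p = 0.00800, edgeR adjusted p = 0.431). Slc36a1, a proton-coupled transporter of lysosomes, had a log2 fold change of 0.43 (SE 0.14; edgeR adjusted p = 0.828). Slc6a18, a relative of Slc6a19, was under 3 CPM in every library, with a log2 fold change of -1.38 (SE 0.50).

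ATF4 and its other targets mostly had small positive log2 fold changes. Of 28 regulators and targets outside the transporters 27 were tested, and 19 were positive, with a median log2 fold change of 0.16. By edgeR and DESeq2 0 were called, and edgeR gave 3 an unadjusted p under 0.05, all higher. The number higher was 7 without control 2, 5 without control 1 and 2 without Ufl1 cKO 1. Over all genes 585 of 17318 were higher at this threshold with all libraries. That number was 773 of 17718 without control 2, 927 of 17827 without control 1 and 332 of 17803 without Ufl1 cKO 1. Aldh18a1, the first enzyme of proline synthesis from glutamate, was at 41.2, 36.2 and 37.2 CPM in Ufl1 cKO 1 to 3, against 27.9, 25.9 and 24.1 CPM in controls 1 to 3 (log2 fold change 0.56, SE 0.13; edgeR adjusted p = 0.612). Atf5, a transcription factor of the same stress response, was at 106, 125 and 108.5 CPM in Ufl1 cKO 1 to 3, against 86.7, 66.1 and 79.9 CPM in controls 1 to 3 (log2 fold change 0.54, SE 0.14). Mthfd2, an enzyme of mitochondrial folate metabolism, had a log2 fold change of 0.64 (SE 0.22). All 6 ATF4 list genes that separated between groups were higher, where 5.73% of all genes did so.

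All 20 cytosolic aminoacyl-tRNA synthetase genes, many of which are ATF4 targets, had log2 fold changes above 0, with a median of 0.16, beside 47.8% of all genes above 0. In 7 of the 20 every cKO library lay above every control, beside 5.73% of all genes, but 0 were called by edgeR or DESeq2. At an unadjusted p under 0.05 edgeR gave 0 (4 higher without control 2 and 2 without control 1). Over all genes 773 of 17718 were higher at this threshold without control 2 and 927 of 17827 without control 1. Yars, for tyrosine, was at 46.8, 46.6 and 46.9 CPM in Ufl1 cKO 1 to 3, against 37.4, 42.7 and 38.2 CPM in controls 1 to 3 (log2 fold change 0.25, SE 0.12). The log2 fold changes were 0.33 (SE 0.15) for Rars, the arginine enzyme, and 0.24 (SE 0.12) for Eprs, that of glutamate and proline. The 7 genes of eIF2alpha, its kinases and their partners had a median of 0.05, 0 calls and 0 at an unadjusted p under 0.05, with Eif2s1 at 0.23 (SE 0.14), Eif2ak3 (PERK) at 0.15 (SE 0.16) and Eif2ak2 (PKR) at 0.14 (SE 0.19).

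Cysteine, which cells form from the cystine imported by Slc7a11, can also be made from methionine. The next list holds genes that make or use cysteine and glutathione. Of 11 genes of cysteine and glutathione metabolism 2 were positive, with a median log2 fold change of -0.11, 0 called by edgeR or DESeq2, and 2 at an unadjusted p under 0.05, both lower. Gclc, the catalytic subunit of the first enzyme of glutathione synthesis, was at 39.2, 43.1 and 39.0 CPM in Ufl1 cKO 1 to 3, against 50.5, 52.6 and 52.6 CPM in controls 1 to 3, with no overlap (log2 fold change -0.36, SE 0.12; edgeR adjusted p = 0.828). Cbs, which makes cystathionine on the way from homocysteine to cysteine, was at 10.03, 11.2 and 10.3 CPM in Ufl1 cKO 1 to 3, against 12.1, 22.9 and 14.4 CPM in controls 1 to 3 (log2 fold change -0.65, SE 0.26). Mat2a, which makes S-adenosylmethionine, was at -0.27 (SE 0.14). NRF2 also drives Slc7a11, and of 20 genes of NRF2 and its targets 10 were positive, with a median of -0.01, 0 calls and 0 at an unadjusted p under 0.05. Among these, log2 fold changes were 0.43 (SE 0.19) for Cbr1, 0.38 (SE 0.28) for Hmox1 and -0.22 (SE 0.18) for Gstm1. The 12 genes of MYC, mTORC1 and hypoxia signalling, which also act on transporter genes, had a median of -0.05, 0 calls and 0 at an unadjusted p under 0.05.

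**Figure D5:**
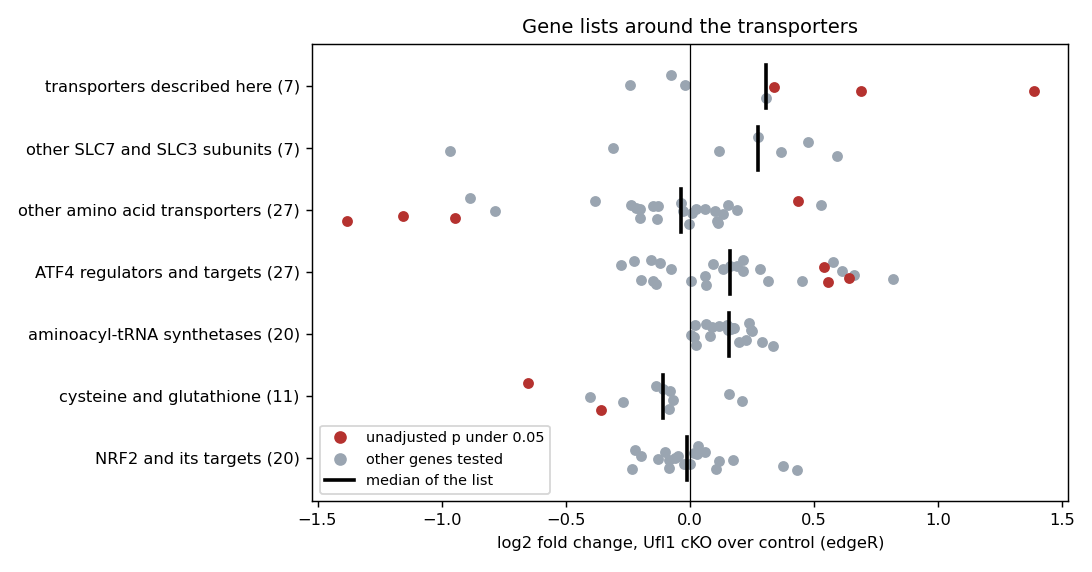
Log2 fold change of Ufl1 cKO over control (x axis, edgeR) for each tested gene (points) of 7 lists (rows, with the number tested), red where the unadjusted p was under 0.05, with the median of each list as a black bar. All 20 synthetase genes lie above 0, while the NRF2 list is centred at -0.01 and the cysteine and glutathione list at -0.11.

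Genes with the most similar pattern over the 6 libraries were found by the root mean square difference of centred log2 CPM among 15886 genes with a mean of at least 1 CPM. Nearest to Slc7a11 were Rhbg, an ammonium transporter gene (difference 0.22), Tdh, for threonine dehydrogenase (0.24), Eef1akmt3, for a lysine methyltransferase of an elongation factor (0.24), Gm48704 (0.26) and Atp13a4, for a P-type ATPase (0.31). Rhbg was at 6.69, 2.77 and 5.50 CPM in Ufl1 cKO 1 to 3, against 1.67, 2.11 and 1.70 CPM in controls 1 to 3. Nearest to Slc7a5 were Igfbp2, which binds insulin-like growth factors (0.09), Alg12, a mannosyltransferase of the endoplasmic reticulum (0.12), Gm47583 (0.13), Abcc3, an export pump (0.13) and Cbr1, a carbonyl reductase (0.13). Igfbp2 was at 139, 181.5 and 166 CPM in Ufl1 cKO 1 to 3, against 80.2, 116 and 117 CPM in controls 1 to 3. Slc7a11 itself lay 0.61 from Slc7a5 on this measure and farthest, at 0.97, from Slc1a5.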

How the data were processed

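RNA was extracted with TRIzol and made into NEBNext Ultra libraries, per the labels' protocols. Per the submitters' processing notes, HISAT2, HTSeq and mm10 were used. Their versions and the strand setting are not given in the sources used here. Raw gene counts were deposited by the authors, per the file headers. The deposited FPKM values are the authors' own, per the file headers. The authors' mean normalized count per group (a signal value), log2 fold change and p-value were deposited in the same table.

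Of 54532 genes, 17318 passed filterByExpr. Counts were scaled by TMM and tested with edgeR 4.0.16 (quasi-likelihood, robust, R 4.3.3). Adjusted p-values are Benjamini-Hochberg values across the tested genes, with a threshold of 0.05. The SE is the log2 fold change over the root of F. DESeq2 1.42.0 on all genes and limma-voom (limma 3.58.1) were alternatives, as were other scalings and filters, the replicate number as a block and leaving out each library. DESeq2 with 1 library left out and transcript lengths from GENCODE M21 were added after seeing the data. Log2 CPM used a prior count of 2. Before use, the scripts were checked on simulated data with known changes. Members and lists were chosen with earlier results of these data known. Genes were named by rule: all members, up to 3 of a pathway list by smallest p, and the 5 nearest patterns of Slc7a11 and Slc7a5. Mfsd12, Slc66a1 and Ctns, and the 4 melanocyte markers that overlapped between groups, were named after their values were seen. Slc66a1 and the agouti gene are listed under older symbols in the table.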

Additional observations from a re-analysis of the deposited data

How the results depend on the processing

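Over all genes edgeR called 3, against 82 in DESeq2, 26 in limma-voom with quality weights, 0 in limma-voom (at an unadjusted p under 0.05, 564 higher and 327 lower), 25 without a filter on low counts and 12 with the replicate number as a block. With 1 library left out the calls lay between 0 and 244 (0 to 4 in edgeR; in DESeq2 45, 139 and 43 without Ufl1 cKO 1, 2 and 3, and 244, 110 and 49 without control 1, 2 and 3). Of the members, 0 were called by edgeR under every scaling and filter and with the block, 1 by DESeq2, and 0 to 2 with a library left out. Correlations of deviations from the group mean were 0.22, -0.04 and -0.04 for same-numbered libraries and -0.161 to 0.185 for other pairs. With 3 libraries a group they cannot show whether the libraries were paired. The block left Slc7a11 at 1.35 (SE 0.36). For the Slc7a11 share of light chains and the light chains per Slc3a2, the paired sign-flip by replicate number (replicate block) kept the differences of 1.25 percentage points and -0.01, with exact p of 0.25 and 1.0. The difference in light chains per Slc3a2 was 0.0920 with Slc7a5 and Slc7a11 alone and lay between -0.0731 and 0.102 with a library left out. The log2 fold change of Slc38a2 was 0.0893 in limma-voom with quality weights and -0.0779 to 0.0484 in edgeR with a library left out, and in DESeq2 it was 0.0349 without Ufl1 cKO 3 and 0.0638 without control 1. That of Slc1a4 was -0.165 to 0.0219 in edgeR with a library left out and 0.0236 in DESeq2 without control 3. The cause was not tested. Slc7a11 ranged from 1.07 to 1.84 and Slc7a5 from 0.53 to 0.81 over all fits. Slc7a11 had the lowest counts of the members, at 65 to 294 a library, but its counting error was small beside the spread among cKO libraries.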
